A study of Mus musculus with 8 samples.

Results

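Matrix metalloproteinases are zinc-dependent enzymes that cut proteins of the extracellular matrix and of the cell surface. Most are made as inactive precursors, and a propeptide that covers the zinc has to be removed before they act. The tissue inhibitors of metalloproteinases, or Timps, bind the active enzymes, and the balance of both groups sets how much matrix is turned over, for instance where ovarian tumor cells attach to and cross the lining of the peritoneum.

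The genes described here were Mmp2, Mmp3, Mmp9, Mmp10, Mmp11, Mmp14, Mmp19, Timp1, Timp2 and Timp3, chosen by symbol, 10 of the 23284 symbols counted. They were measured by RNA-seq in ID8 IP2 cells, a mouse line from ovarian surface epithelium derived from ID8 tumor cells by passage in mice. Notch3IC cells carried a lentivirus for an HA-tagged Notch3 intracellular domain, the part that acts in the nucleus, with GFP translated from the same transcript, and Control cells carried the empty vector. Both also carried a lentivirus for luciferase and mCherry. Each of Sets #1 to #4 was a separate infection that gave 1 Control and 1 Notch3IC line, so n = 4 libraries per group, and by the methods the cells were probably contaminated with mycoplasma, Control and Notch3IC alike. The libraries held between 15524262 and 28208072 counts.

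Notch3 was measured at 38.7, 40.6, 70.8 and 42.0 normalized counts in Control (Sets #1 to #4 in order) and at 4322, 467, 9220 and 5842 in Notch3IC. All Notch3IC libraries lay above all Control libraries, with the lowest value in Set #2. The Notch target genes Hey1, Heyl and Nrarp were called higher too (edgeR, adjusted p = 0.0169 for each), and their lowest Notch3IC values were likewise in Set #2, at 438, 215 and 221 normalized counts. A normalized count is a count divided by the library's TMM-scaled size and brought to the mean size. Calls needed an adjusted p below 0.1 together with a log2 fold change (log2FC, given with its standard error, SE) of 1 or more in either direction.

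Of markers of the labelled cell type, the keratin genes Krt8 and Krt19 and the mesothelial genes Wt1 and Upk3b, which ovarian surface epithelium shares, were detected in every library. The epithelial markers Krt18 and Cdh1 were too. Epcam had at most 12 counts in any library, and Krt7 had 46 in the Control library of Set #3 and at most 7 in any other, too few to be tested. The summed mesothelial markers (5 genes, Upk3b mostly the most abundant) stood at 18676, 38544, 60308 and 54481 normalized counts in Control and at 4895, 24139, 19241 and 14752 in Notch3IC. Msln, which encodes mesothelin, and Upk1b were called lower (log2FCs -2.60 and -2.19, adjusted p = 0.0625 and 0.0762), 2 of 5 beside 0.74% of all genes, and with the set as a block 4 of the 5 were, beside 2.53%. Of the fibroblast markers, Pdgfrb, a receptor for platelet-derived growth factor, was called higher (log2FC 5.99, adjusted p = 0.0169), Pdgfra was not (0.49, adjusted p = 0.592), and Thy1 and Lum had at most 2 and 4 counts in any library. Of the epithelial markers, Krt8 had a log2FC of -0.74 (adjusted p = 0.109) and Krt19 one of -2.12 (adjusted p = 0.124, and 0.0288 and called lower with the set as a block). These cells are a bulk population, so fewer cells of a kind and less RNA per cell cannot be told apart, and the part of these shifts in the results below was not tested. The leukocyte marker Ptprc had 2 counts in 1 library and 0 in the others, and Adgre1 had 0 in all. Csf1r, a macrophage receptor gene, was called higher (log2FC 1.52, adjusted p = 0.0719) from at most 40.3 normalized counts, and Cd68 was not called (-0.40, adjusted p = 0.610). The endothelial markers Pecam1 and Kdr stayed at or below 25.3 and 24.6 normalized counts, and neither was called.

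Of the 10 genes, 8 passed the expression filter and were tested, and Mmp9 and Mmp10 did not. Mmp14 and Mmp19 were called higher, 2 of 8 against 3.4% of the 12430 genes tested, and 0 were called lower, against 0.74% (edgeR). DESeq2 also called these 2 genes higher and 0 lower, against 4.62% and 1.44% of the same 12430 genes. In edgeR with condition alone no other tested member had an unadjusted p under 0.05, which 18.4% of all genes had. With the set as a block Mmp2, Mmp3, Timp1 and Timp3 had one too (0.0182, 0.00476, 0.0477 and 0.0381), as did 35.0% of all genes, and with no filter Mmp9 did (0.0321). With the set as a block, which pairs the lines of each infection, the same 2 were called against 5.19% of all genes, and Mmp3 was called lower against 2.53%. Of the tested members, the same 2 had every Notch3IC library above every Control library, a pattern found in 7.08% of the genes tested. None of the tested members had all Notch3IC libraries below all Control libraries, which 3.75% of the genes tested did. The median log2FC of the 8 genes was 0.20, with 5 above 0 and 3 below, beside -0.01 over all genes tested.

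**Figure D1:**
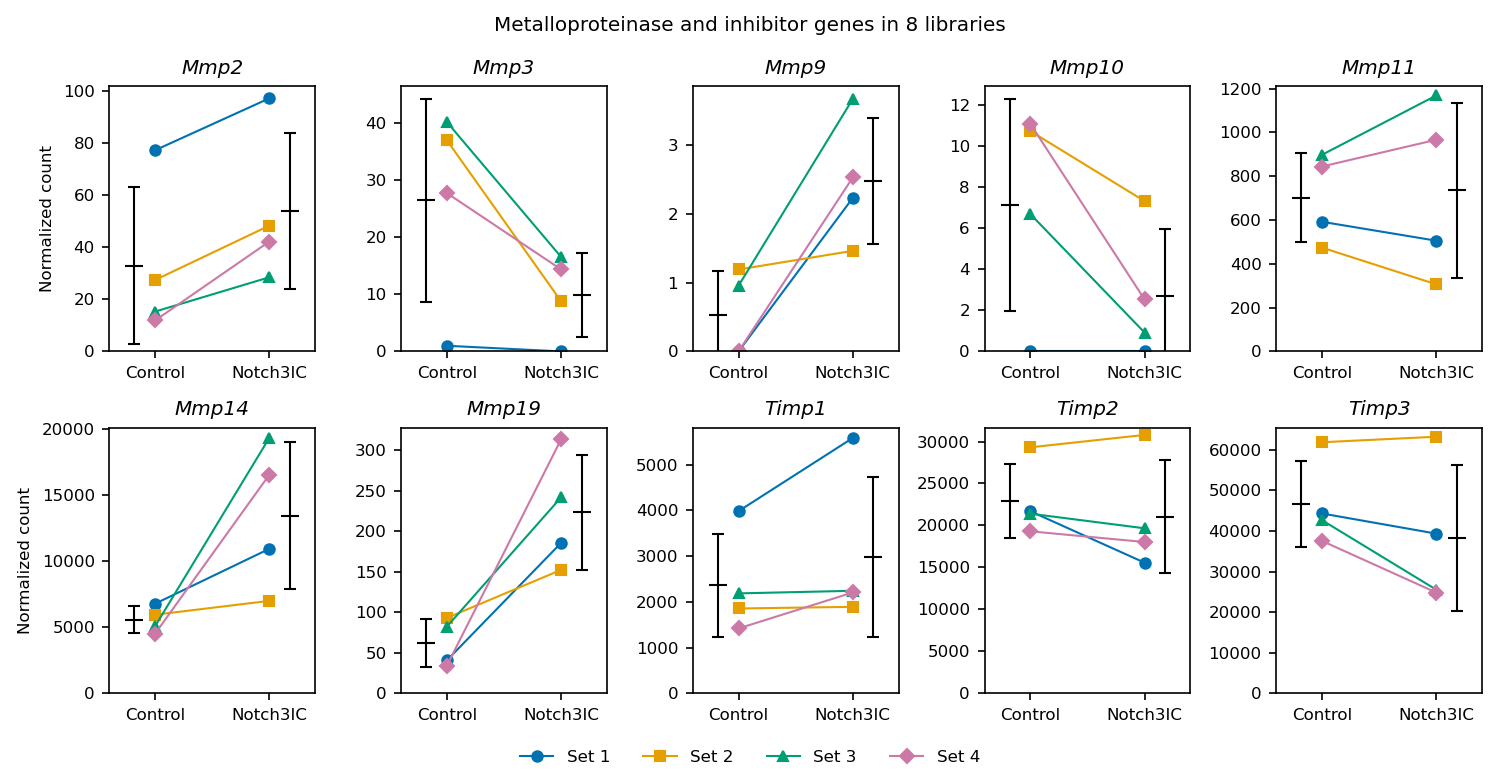
Normalized counts (linear axes from 0, a scale per gene) of the 10 genes in the Control and Notch3IC libraries, with a line joining the libraries of each set and black bars for mean ± SD (n = 4), cut off at 0. Of the tested genes, Mmp14 and Mmp19 do not overlap between groups, Mmp3 is lower in Notch3IC in every set, and the 3 Timp genes overlap.

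Mmp14 encodes MT1-MMP, a protease anchored in the cell membrane that cuts fibrillar collagen and, together with Timp2, activates the precursor of Mmp2. The gene lies at chr14:54431612-54445364 on the plus strand (GRCm38, protein coding). It had 6786, 5956, 5079 and 4517 normalized counts in Control and 10945, 7004, 19344 and 16552 in Notch3IC, in Sets #1 to #4. The groups did not overlap, though the Notch3IC library of Set #2 stood only just above the highest Control library. The means were 5584 ± 996 and 13461 ± 5543 (SD, n = 4 each), a log2FC of 1.27 (SE 0.30, adjusted p = 0.0604). The log2 ratio within a set was 0.69, 0.23, 1.93 and 1.87 in Sets #1 to #4. The call was lost without the Control library of Set #2, #3 or #4 (adjusted p = 0.108, 0.174 and 0.191) and without the Notch3IC library of Set #3 or #4 (adjusted p = 0.150 and 0.183), with log2FCs between 1.04 and 1.30. Without the whole of Set #3 or Set #4 the log2FC was 1.00 and 1.07 (adjusted p = 0.391 and 0.503). With the set as a block the call was lost without Set #1, #3 or #4 (1.36, 0.93 and 0.95, adjusted p = 0.153, 0.253 and 0.274). With condition alone and without Set #2, where Notch3 was lowest, the log2FC was 1.52 (adjusted p = 0.0205).

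The 250 bases before the RefSeq start of Mmp14 are shown because this gene had the highest level of the proteases and rose, and to set beside the promoters of the stromelysins below (chr14:54431348-54431597, plus strand, GRCm38.p6).
Mmp14: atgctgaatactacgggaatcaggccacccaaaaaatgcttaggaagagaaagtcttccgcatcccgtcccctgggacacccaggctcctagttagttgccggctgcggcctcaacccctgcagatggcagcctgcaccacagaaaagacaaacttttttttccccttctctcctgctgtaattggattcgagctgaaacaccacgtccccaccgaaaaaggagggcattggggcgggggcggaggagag
Neither TGANTCA, the site letters of AP-1 factors, nor TATAAA was found in it on either strand, so no letters stand in capitals. GGGCGG, the letters of a GC box, occurred at -19 to -14 and at -13 to -8 from the start, as it did somewhere in this window of 32.7% of 32851 RefSeq promoters. TGGGAA, the core letters bound by Rbpj, the DNA-binding partner of Notch intracellular domains, was found in 21.6% of all promoters and in that of Timp1, at -158 to -153, alone of the 7 members with a promoter in the table. A match or its absence describes these letters in this window only. Mmp2, Mmp9 and Mmp19 were not matched.

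Mmp19 encodes a secreted metalloproteinase that cuts basement membrane and other matrix proteins. It lies at chr10:128790910-128800824 on the plus strand. It had 40.7, 93.1, 82.3 and 34.1 normalized counts in Control and 186, 152, 242 and 313 in Notch3IC. Every Notch3IC library lay above every Control library. The means were 62.5 ± 29.5 and 223 ± 70.5 (SD, n = 4 each), a log2FC of 1.84 (SE 0.38, adjusted p = 0.0422), and Sets #1 to #4 had log2 ratios of 2.18, 0.71, 1.55 and 3.18. The smallest ratio was again in Set #2. The call was lost without the Control library of Set #3 or #4 (adjusted p = 0.108 and 0.129), the Notch3IC library of Set #3 or #4 (adjusted p = 0.114 and 0.138), or the whole of either set (adjusted p = 0.272 and 0.351). The log2FCs were 2.01, 1.63, 1.80 and 1.64 without these libraries and 1.97 and 1.43 without these sets. With the set as a block the call was lost without Set #1 (1.80, adjusted p = 0.151), as it was without Set #3 or #4. Without Set #2 and without the block the log2FC was 2.24 (adjusted p = 0.0231). The annotation places 22.3% of the exon bases of Mmp19 over Tmem198b and 6% over Gm47093, both on the opposite strand, and whether reads were counted by strand is not given in the sources used here. Tmem198b itself had between 262 and 632 counts per library and a log2FC of 0.63 (SE 0.14, adjusted p = 0.0491), so reads of the 2 genes may be mixed.

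Mmp2 and Mmp9 encode the gelatinases, which cut denatured collagen and the collagen of basement membranes. Mmp2 (chr8:92827291-92853420, plus strand) had 77.3, 27.5, 15.3 and 11.9 normalized counts in Control and 97.3, 48.4, 28.5 and 42.2 in Notch3IC. Both libraries of Set #1 were the highest of their group, and the groups overlapped. Mmp2 was higher in Notch3IC in each of the 4 sets, by log2 ratios of 0.33, 0.81, 0.88 and 1.79, but did not pass the test (log2FC 0.71, SE 0.64, adjusted p = 0.617). With the set as a block the log2FC was 0.90 (SE 0.28, adjusted p = 0.0814), under the fold limit, so Mmp2 was not called there either. Without the Control library of Set #1 the log2FC was 1.58 (adjusted p = 0.138), without the Notch3IC library of Set #1 it was 0.28, and without both it was 1.13 (adjusted p = 0.159). Leaving out the Control library of Set #3 or #4 gave 0.47 and 0.43. Mmp9 (chr2:164940780-164955850, plus strand) had 0, 1, 1 and 0 counts in Control and 2, 1, 4 and 3 in Notch3IC. These counts are too few for a fold change, and edgeR with no filter gave an adjusted p of 0.255.

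Mmp3 and Mmp10 encode the stromelysins, secreted enzymes that cut many matrix proteins and activate other metalloproteinases, and Mmp13 encodes a collagenase. All lie in a run of Mmp genes on chromosome 9. The 250 bases before each RefSeq start are shown because the counts of these genes were lower in Notch3IC in Sets #2 to #4, with TGANTCA and TATAAA in capitals. The windows are chr9:7445572-7445821 for Mmp3, chr9:7502092-7502341 for Mmp10 and chr9:7272264-7272513 for Mmp13, all on the plus strand of GRCm38.p6.
Mmp3: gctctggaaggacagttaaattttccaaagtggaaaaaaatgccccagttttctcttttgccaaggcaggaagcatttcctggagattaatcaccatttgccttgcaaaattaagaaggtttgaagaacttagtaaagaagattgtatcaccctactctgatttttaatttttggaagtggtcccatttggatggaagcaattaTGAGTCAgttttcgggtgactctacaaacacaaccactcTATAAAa
Mmp10: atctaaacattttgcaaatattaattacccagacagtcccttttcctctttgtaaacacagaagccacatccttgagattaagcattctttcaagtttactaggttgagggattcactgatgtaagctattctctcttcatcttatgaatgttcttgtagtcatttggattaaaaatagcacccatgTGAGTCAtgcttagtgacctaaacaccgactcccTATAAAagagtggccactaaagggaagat
Mmp13: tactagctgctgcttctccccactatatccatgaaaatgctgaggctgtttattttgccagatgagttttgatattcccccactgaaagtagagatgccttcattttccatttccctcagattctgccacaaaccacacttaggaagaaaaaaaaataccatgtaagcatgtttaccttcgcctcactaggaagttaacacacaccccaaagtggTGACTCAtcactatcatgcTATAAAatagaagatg
The AP-1 letters TGANTCA stood at -46 to -40 in Mmp3, at -63 to -57 in Mmp10 and at -35 to -29 in Mmp13. They occurred in 6.75% of all promoters of this length, and TATAAA occurred in 12.4%. Of the 10 Mmp genes in the chromosome 9 run, 8 held TGANTCA, 7 held TATAAA and 0 held GGGCGG.

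Mmp3 (chr9:7445822-7455975) had 0.992, 37.0, 40.2 and 27.7 normalized counts in Control and 0, 8.79, 16.6 and 14.4 in Notch3IC. The Set #1 libraries had almost none in either group, and over all 4 sets the groups overlapped. In Sets #2 to #4 every Notch3IC library lay below every Control library. Set #1 was set aside there after its values were seen, and the share of all genes with this pattern was not counted. Set by set, the log2 ratio of Mmp3 was -1.58, -2.01, -1.26 and -0.93, of which the first rests on 1 count against 0 and was -0.26 with a pseudocount of 5. The log2FC was -1.37 (SE 0.95, adjusted p = 0.505), which did not pass the test. With the set as a block it was -1.37 with a SE of 0.32 (adjusted p = 0.0448, called lower). Without Set #1 and without the block it was -1.36 (adjusted p = 0.0872, called lower, as were 151 of the 12488 genes tested there). With the block and without Set #1, #3 or #4 it was not called (-1.36, -1.44 and -1.61, adjusted p = 0.131, 0.191 and 0.158), and with the block and without Set #2 it was (-1.14, adjusted p = 0.0429).

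Mmp10 (chr9:7502352-7510240, plus strand) starts 46376 bases beyond the end of Mmp3. It had 0, 9, 7 and 14 counts in Control and 0, 5, 1 and 3 in Notch3IC, so Set #1 again had none and the other sets had fewer counts in Notch3IC. It did not pass the expression filter. DESeq2, whose filter admitted it, gave an adjusted p of 0.587, and edgeR with no filter gave 0.544.

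The neighbours of Mmp3 and Mmp10 were looked at after the values of these genes were seen. The run holds 10 Mmp genes over 427.1 kb (chr9:7272514-7699585), of which Mmp1b, Mmp1a and Mmp20 had 0 counts in every library. Mmp13, at the first place in the run, had 21.8, 83.6, 90.9 and 84.8 normalized counts in Control and 2.24, 44.0, 23.9 and 18.6 in Notch3IC. It was lower in all 4 sets but did not pass the test (log2FC -1.68, SE 0.70, adjusted p = 0.247), and it was called lower with the set as a block (-1.82, adjusted p = 0.0297). Mmp8, which encodes a collagenase of neutrophils, had 0, 8, 8 and 12 counts in Control and 0, 1, 2 and 2 in Notch3IC. Mmp12, Mmp27 and Mmp7 had at most 3 counts in any library, with Mmp7 higher in Notch3IC in Set #2 and Mmp27 in Set #4. The run as a whole, Mmp3 and Mmp10 included, summed to 22.8, 143, 149 and 137 normalized counts in Control and 2.24, 63.0, 44.1 and 39.7 in Notch3IC, lower in Notch3IC in every set. Mmp13 and Mmp3 held most of this sum. By the sum, the Control library of Set #1 held fewer than the Notch3IC libraries of Sets #2 to #4, so the groups overlapped.

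**Figure D2:**
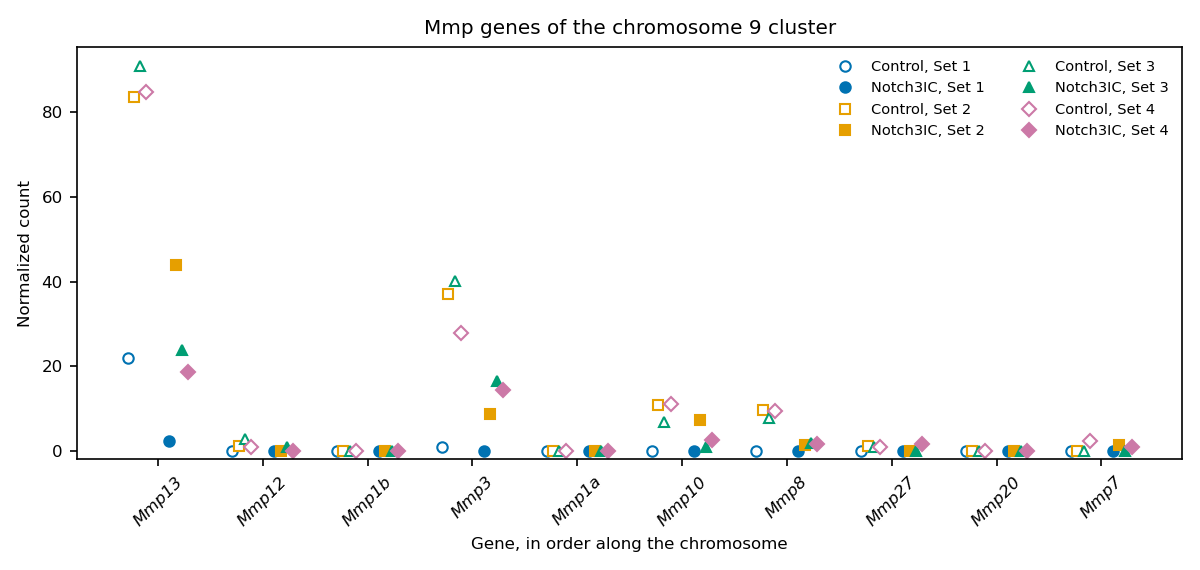
Normalized counts (linear axis) of the 10 Mmp genes of the chromosome 9 run in gene order, open symbols for Control and filled for Notch3IC, a shape and color per set. Mmp13 and Mmp3 carry most of the counts, and their Set #1 symbols lie at or near the bottom of both groups.

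Mmp11 encodes stromelysin-3, which differs from the other stromelysins in that furin activates it inside the cell. It lies at chr10:75923222-75936496 on the minus strand, with 5.58% of its exon bases over Chchd10 on the opposite strand. Chchd10 had 793, 579, 1423 and 2204 counts in Control and 95, 150, 657 and 652 in Notch3IC (log2FC -1.62, adjusted p = 0.155), and its part in the counts of Mmp11 was not tested. It had 592, 474, 898 and 844 normalized counts in Control and 506, 306, 1169 and 966 in Notch3IC. It was lower in Notch3IC in Sets #1 and #2 and higher in Sets #3 and #4 (log2 ratios -0.23, -0.63, 0.38 and 0.19). The log2FC was 0.07 (SE 0.40, adjusted p = 0.955), and its sign turned under several alternatives.

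The 3 inhibitor genes were not called. Timp1 (chrX:20870166-20874735, plus strand), which inhibits most secreted metalloproteinases but binds membrane-anchored ones such as MT1-MMP poorly, had 3982, 1855, 2185 and 1419 normalized counts in Control and 5581, 1892, 2242 and 2205 in Notch3IC. Set #1 was the highest in both groups. Timp1 was higher in Notch3IC in 4 of 4 sets, but in Sets #2 and #3 by log2 ratios of only 0.03 and 0.04, and did not pass the test (log2FC 0.34, SE 0.42, adjusted p = 0.740; 0.139 with the set as a block).

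Timp2 (chr11:118301069-118355740, minus strand), the partner of MT1-MMP in the activation of Mmp2, had 21699, 29307, 21406 and 19306 normalized counts in Control and 15571, 30784, 19665 and 18030 in Notch3IC. Set #2 was the highest in both groups, which overlapped (log2FC -0.13, SE 0.23, adjusted p = 0.832). Timp3 (chr10:86300372-86349506, plus strand), which stays bound to the matrix and also inhibits Adam proteases, had 44284, 61815, 42635 and 37527 in Control and 39320, 63175, 25524 and 24820 in Notch3IC. Sets #3 and #4 had the lowest Notch3IC values, and the groups overlapped. Set by set, the log2 ratio of Timp3 was -0.17, 0.03, -0.74 and -0.60, and the log2FC was -0.29 (SE 0.32, adjusted p = 0.701; 0.123 with the set as a block). Without the Notch3IC library of Set #2 the log2FC was -0.64 (adjusted p = 0.149), and without the Control library of Set #2 it was -0.12. With the block and without Set #2 it was -0.50 (adjusted p = 0.0245), under the fold limit. Of its exon bases, 21.3% lie over Syn3 on the opposite strand, which had at most 64 counts in any library.

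**Figure D3:**
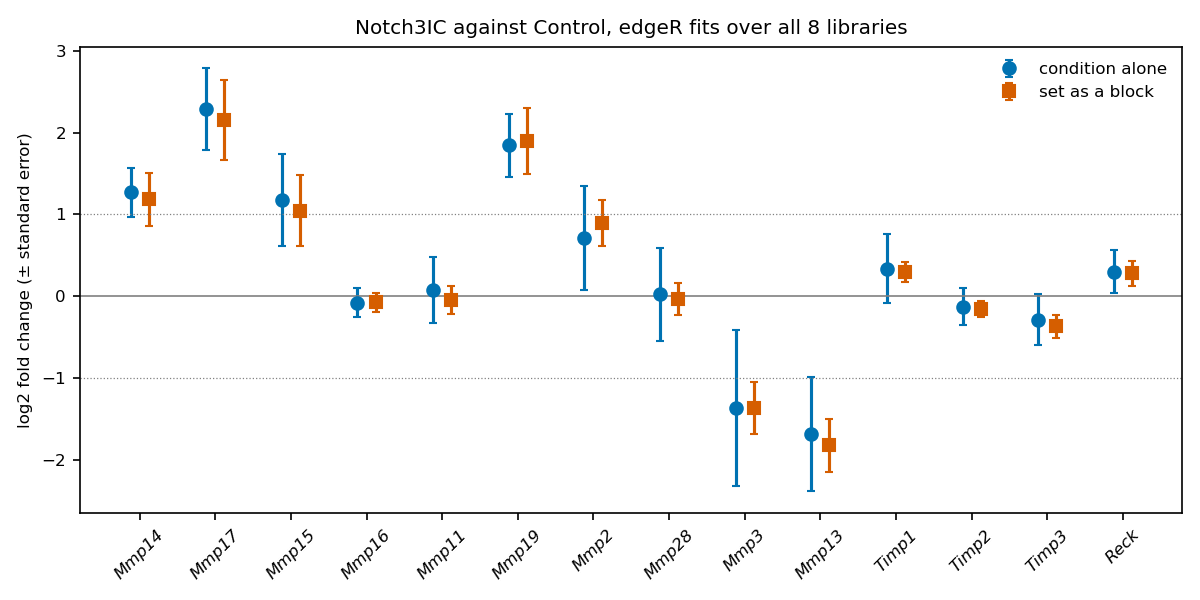
Log2 fold changes (y axis, bars are SEs) of the 14 tested metalloproteinase and inhibitor genes (8 members, 5 other Mmp genes and Reck) in the fit with condition alone (circles) and with the set as a block (squares), and dotted lines at the limit of 1 in size. Mmp14, Mmp17, Mmp19 and Mmp15 lie above the upper line in both fits, of which Mmp15 (1.17 and 1.05, adjusted p = 0.313 and 0.147) was not called, and the bars of Mmp3 and Mmp13 shorten with the block.

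**Figure D4:**
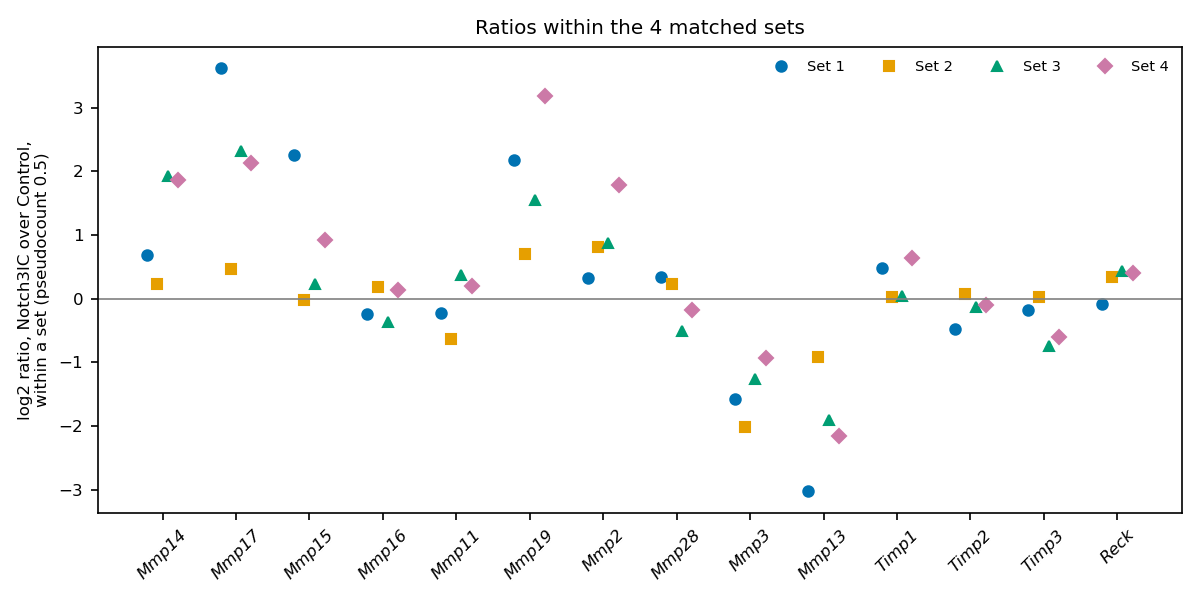
Log2 ratio of Notch3IC over Control within each set (y axis, pseudocount 0.5) for the same 14 genes, a symbol per set. For the 4 genes with a log2FC above 1, Mmp14, Mmp17, Mmp19 and Mmp15, the smallest ratio is that of Set #2, at 0.23, 0.46, 0.71 and -0.024. The share of all genes with this pattern was not counted. Among the other genes drawn, Mmp2 has its smallest ratio in Set #1 (0.33), and Mmp3 has its largest decrease in Set #2 (-2.01).

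Levels of different genes were compared as CPM per kb of exon, with TMM-scaled library sizes. By this level Timp2 (252 ± 48.2 in Control, SD, n = 4) and Timp3 (245 ± 55.6) came first, with ranges that overlapped. Timp1 (114 ± 54.3), Mmp14 (40.2 ± 7.16) and Mmp11 (10.8 ± 3.12) followed, each with a range apart from its neighbors. The levels of Mmp19 (0.759), Mmp3 (0.630), Mmp2 (0.420), Mmp10 (0.178) and Mmp9 (0.00651) were lower, and each overlapped the next. In Notch3IC the order of the first 6 means was the same, but the ranges of Timp3 and Timp1 overlapped, with Timp1 above Timp2 and Timp3 in Set #1 (269.3 against 171.3 and 206.9). The range of Mmp14 (96.8 ± 39.9) overlapped that of Timp1 (144 ± 84.0) as well, and in 2 of the 4 libraries Mmp14 lay above Timp1. Mmp19 (2.71 ± 0.855) stood apart from Mmp2 (0.688). By mean Mmp2 ranked above Mmp3 (0.236), but their ranges overlapped, and Mmp2 lay above Mmp3 in 3 of the 4 libraries.

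Mmp14 made up between 69.1% and 82.1% of the summed level of the 7 Mmp genes in Control and between 85.8% and 87.4% in Notch3IC. This sum, also used in the ratios below, leaves out the other Mmp genes, so these are not shares of all Mmp transcripts. Among those left out, Mmp17 stood at 1.35, 2.57, 3.65 and 2.81 in Control and at 16.7, 3.55, 18.3 and 12.4 in Notch3IC. The summed Timp level was 11.2, 13.97, 10.7 and 10.2 times the summed Mmp level in Control and 7.19, 13.2, 2.85 and 3.14 times in Notch3IC. The ratio was lower in Notch3IC in every set, least so in Set #2, whose Notch3IC library lay above 3 of the Control libraries. The level of Timp3 was 4.78, 7.60, 6.14 and 6.08 times that of Mmp14 in Control and 2.63, 6.60, 0.966 and 1.10 times in Notch3IC, in Sets #1 to #4. These sums are descriptions of transcripts and were not tested.

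**Figure D5:**
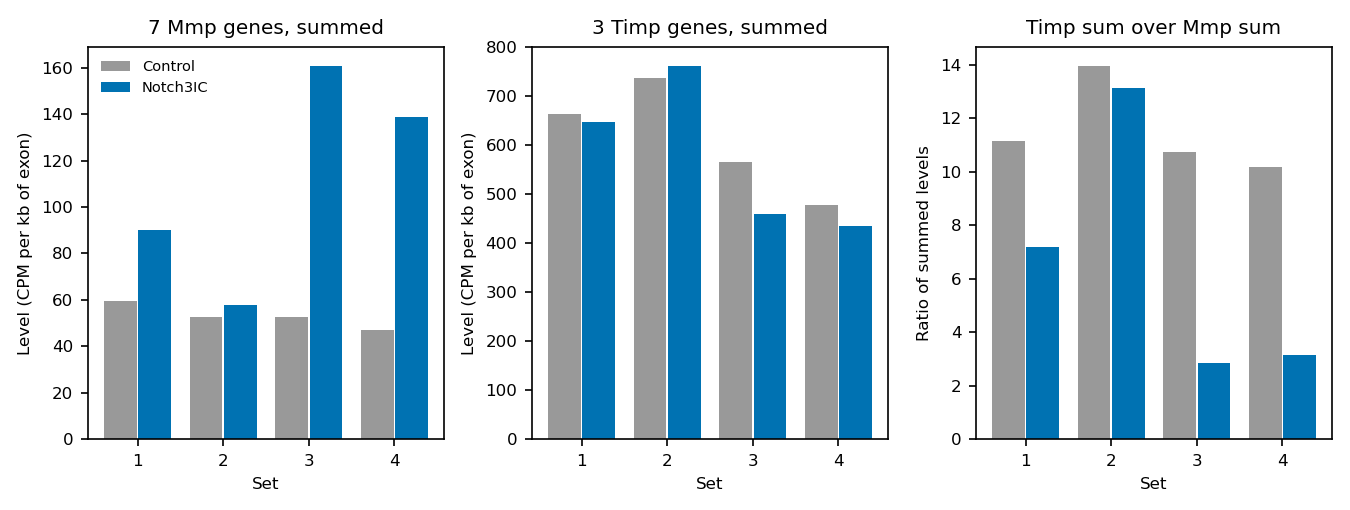
Summed levels (CPM per kb of exon) of the 7 Mmp genes and of the 3 Timp genes, and the ratio of the sums, in each library by set, with bars from 0, grey for Control and blue for Notch3IC. The Mmp sum is highest in Notch3IC of Set #3 (160.9) and the ratio lowest there (2.85).

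Of 16 other Mmp genes listed, 4 had no count and 5 were tested, and Mmp17 was called higher, 1 of 5 beside 3.4% of all genes. An unadjusted p under 0.05 was found for 2 of the 5, beside 18.4% of all genes. Mmp17 encodes MT4-MMP, which is held in the membrane by a lipid anchor. It had 208, 398, 564 and 434 normalized counts in Control and 2572, 548, 2820 and 1909 in Notch3IC. Set #2 was again the lowest of the Notch3IC libraries, below the highest Control library. Its log2FC was 2.29 (SE 0.50, adjusted p = 0.0467). Mmp16, which encodes the membrane-anchored MT3-MMP, averaged 573 ± 124 normalized counts in Control and 542 ± 89.2 in Notch3IC (log2FC -0.08, adjusted p = 0.867). Of the 6 other inhibitors, Reck alone had enough counts to be tested. Reck, a membrane-anchored inhibitor of several metalloproteinases, had a log2FC of 0.30 (adjusted p = 0.615).

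Of 6 tested genes for activation, binding and clearance of metalloproteinases, 0 were called by edgeR or DESeq2, and 2 had an unadjusted p under 0.05 in edgeR, as did 18.4% of all genes tested. The most abundant were Lrp1, an endocytic receptor that clears proteases with their inhibitors (log2FC 0.36, adjusted p = 0.416), and Bsg, which encodes basigin, an inducer of metalloproteinases (0.05, adjusted p = 0.855). Of 7 tested Adam genes, which encode membrane proteases that shed cell surface proteins, 0 were called by edgeR, 2 had an unadjusted p under 0.05 (beside the same 18.4% of all genes), and DESeq2 called 1 higher (4.62% of all genes). Adam10 and Adam9 had log2FCs of 0.05 and 0.05 (adjusted p = 0.937 and 0.917). Adam12 and Adam33, named after their values were seen, were called higher (1.87, adjusted p = 0.0674) and lower (-1.76, adjusted p = 0.0388) with the set as a block, which called 5.19% of all genes higher and 2.53% lower.

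Of 11 genes for AP-1 and Ets factors, families known to act at promoters of metalloproteinases, 0 were called by edgeR, 2 had an unadjusted p under 0.05, which is near the 18.4% of all genes, and DESeq2 called 1 higher (4.62% of all genes). Fosl2 and Junb, the most abundant, had log2FCs of -0.16 and -0.25 (adjusted p = 0.677 and 0.745). Jun, named after its values were seen, had 924, 506, 639 and 617 normalized counts in Control and 2093, 554, 2147 and 1554 in Notch3IC. It had its lowest Notch3IC value in Set #2 (log2FC 1.24, adjusted p = 0.134, and 0.0473 with the set as a block, called higher).

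Of 12 tested genes for matrix proteins that metalloproteinases cut, 2 were called higher (3.4% of all genes) and 0 lower, with the set as a block 6 were called higher (5.19% of all genes), and DESeq2 called 6 higher (4.62% of all genes). In edgeR without the block 8 of the 12 had an unadjusted p under 0.05, beside 18.4% of all genes. The median log2FC was 1.05. Tnc, which encodes tenascin C, averaged 1680 ± 1342 normalized counts in Control and 8587 ± 2487 in Notch3IC (SD, n = 4 each; log2FC 2.36, adjusted p = 0.0451). Col3a1, a fibrillar collagen gene, had a log2FC of 1.30 (adjusted p = 0.0818). The most abundant, Fn1 for fibronectin and Col1a1 for collagen I, had log2FCs of 1.09 and 1.01 (adjusted p = 0.134 and 0.166), and with the block Col1a1 was called higher (adjusted p = 0.0386).

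For each tested member, the 2 genes with the most similar log2 CPM over the 8 libraries were found by Pearson's r. It was taken over both groups and so also follows condition and set. The genes most like Mmp14 were Hrct1 (r = 0.996) and Ppp1r9b (r = 0.995), and those most like Mmp19 were Gng11 (r = 0.989) and Pdgfrl (r = 0.985). Timp1 was most like Pcolce2, which encodes an enhancer of procollagen processing (r = 0.989), and Tagln, a gene of the contractile cytoskeleton (r = 0.984). Timp2 was most like Sdhb (r = 0.991) and Gm6251 (r = 0.987), and Timp3 like Reep5 (r = 0.989) and Bmper (r = 0.985). Mmp2 was most like Cenph and B4galt2 (r = 0.981 and 0.980), Mmp3 like Tyk2 (r = 0.987) and Mmp11 like Epn2 and Rai14 (r = 0.976 and 0.965).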

How the data were processed

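Polyadenylated RNA of 8 lines was sequenced as single-end reads. The authors aligned them with TopHat, counted with Cufflinks and deposited raw counts per gene symbol, 1 table per library, and the submitters' processing notes name mm9. The strand setting is not given in the sources used here. Between 15524262 and 28208072 counts per library were available, and no 2 libraries agreed within counting error.

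Notch3IC was compared with Control with edgeR 4.0.16 in R 4.3.3 (TMM, filterByExpr by condition, robust quasi-likelihood test, Benjamini-Hochberg over 12430 genes), with condition as the only term, since the study names no set term. Standard errors are the log2 fold change divided by the square root of F. Ratios within a set used a pseudocount of 0.5. The biological coefficient of variation was 26.3%, and 14.1% with the set as a block. The methods describe the 2 lines of a set as matched, and their libraries' deviations from the group means correlated at 0.398 to 0.804, against -0.501 to 0.372 for crossed pairs.

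Symbols were placed on GRCm38 with GENCODE M21 and promoters came from RefSeq (GRCm38.p6), joined by symbol alone because the counts rest on mm9. Python 3.11.15, NumPy 2.4.6, pandas 2.3.3 and Matplotlib 3.10.9 were used, and the test was tried on simulated data. Named genes were the 10 members, 4 Notch genes, the called and the 2 most abundant tested genes of each list, and the 2 genes most like each tested member, of which 1 is not reported here. The members and lists were chosen with earlier results of these data known. DESeq2 1.42.0, other normalizations and filters, the block and leaving out libraries or sets were the alternatives. Protein sequences are not used here.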

Additional observations from a re-analysis of the deposited data

Results flagged for a closer look

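In 44 groups of 4 libraries (22 items, namely genes and the library total, Control and Notch3IC apart), 3 held a library far from the rest of its group by Dixon's ratio, beside 2.2 that chance gives at 1 in 20. Timp1 stood at 5581 normalized counts in the Notch3IC library of Set #1, against 1892 to 2242 in the other Notch3IC libraries. The Control library of Set #1 was also the highest of its group for Timp1, at 3982. Tnc stood at 3671 normalized counts in the Control library of Set #2, against 739 to 1188 in the other Control libraries. Notch3 stood at 70.8 normalized counts in the Control library of Set #3, against 38.7 to 42.0 in the others.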

How the results depend on the processing

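Mmp14 and Mmp19 had positive log2 fold changes under all 25 alternatives each, from 0.93 to 1.52 and from 1.43 to 2.28, and kept their calls in 14 and 16 of them. They were called by DESeq2, under each normalization and filter and with the replicate block. At an adjusted p of 0.05 the members called higher numbered 1. Leaving out libraries or sets, with or without the block, gave 0 to 2 members called higher, 0 to 1 called lower, 0 to 904 genes called higher overall and 0 to 426 lower. The lowest overall counts came without Set #3 (1 higher, 0 lower, with 806 and 295 genes at an unadjusted p under 0.05 in edgeR) and without Set #4 (0 and 0, with 742 and 269), and the highest with the block and without Set #2. Without the Control library of Set #3 or #4, 75 and 99 genes were called higher.

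Over all genes, 423 were called higher and 92 lower. DESeq2, run on all 23284 symbols with its own filter, called 708 and 192, of which 574 and 179 were among the 12430 genes that edgeR tested, and the replicate block 645 and 315, with 1 member lower, Mmp3. At an adjusted p of 0.05, 48 genes were called lower, and with no fold limit 210. The block changed no other member's call. The sign of Mmp11 turned with the replicate block (-0.051), without Control replicate 1 or 2 (-0.003 and -0.08), without Notch3IC replicate 3 or 4 (-0.24 and -0.08), without Set #3 (-0.10), and with the block without Set #3 or #4 (-0.21 and -0.14). That of Timp2 turned without Control replicate 2 (0.013), and that of Timp1 without Notch3IC replicate 1 (-0.15). Leaving out 1 library or set, Mmp11 ran from -0.24 to 0.32, Timp1 from -0.15 to 0.71, Timp2 from -0.37 to 0.013 and Timp3 from -0.64 to -0.12, none of them called. The cause was not tested. Without the filter edgeR called neither Mmp9 nor Mmp10, and DESeq2 gave Mmp9 no adjusted p and did not call Mmp10.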
